A study of Saccharomyces cerevisiae with 18 samples.

Results

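The transcripts of baker's yeast, Saccharomyces cerevisiae, were compared by class between the direct random and the indirect labeling methods. The 12 arrays compared were all those titled DirectRandom or Indirect among the 18 arrays of the series, 6 for each method. Each set of 6 held 3 arrays of strain EPY330 and 3 of strain EPY338, both engineered strains grown from 3 colonies in YPG inducing medium for 24 h at 30°C. Total RNA of the cultures of a strain was pooled, and both methods labeled the same pools from 10 µg of RNA per reaction. The 3 arrays of a method and strain were therefore separate labelings of 1 pool, and every p-value below measures the spread between labelings and hybridizations, not between cultures. The strains were entered as a covariate and differ in ways not examined here.

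In the direct random method, reverse transcription is primed by random nonamers that carry the dye Cy3 at their 5′ end, so that any RNA of the total RNA can serve as template, from any position along it. In the indirect method, as the study's overview of its protocols gives it, an oligo(dT) primer pairs with poly(A) stretches, aminoallyl nucleotides are built into the cDNA, and the dye Alexa Fluor 555 is coupled afterwards. Nuclear messenger RNAs of yeast carry a poly(A) tail at their 3′ end, whereas the messenger RNAs of yeast mitochondria lack such tails and mature ribosomal RNAs are as a rule not polyadenylated. The amounts of cDNA hybridized also differed, 5 µg for the direct random method and 300 ng for the indirect method. The primer, the way of dyeing, the dye and the amount thus changed together, and their contributions cannot be told apart.

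The deposited values were log2 intensities after quantile normalization, 1 value per gene and array, for 5739 genes. The median of an array was 9.99 to 10.02 on direct random arrays and 9.99 to 10.02 on indirect arrays, so that a gain or loss of signal below is relative to the other genes on the array. The median standard deviation between the 3 labelings of a group was 0.073 on direct random arrays and 0.102 on indirect arrays, both on the log2 scale. The galactose genes GAL1, GAL7 and GAL10, which encode the enzymes of galactose use, averaged 15.04, 14.04 and 14.44 on direct random arrays and 15.02, 14.16 and 14.50 on indirect arrays, and the actin gene ACT1 averaged 13.82 on direct random arrays and 13.95 on indirect arrays. The third indirect labeling of EPY338 stood apart from its group more than any other of the 12 arrays: its genes deviated from the other labelings of its group by a median of 0.127, against 0.060 to 0.095 for the others.

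The methods differed for a majority of the genes, but mostly by little. With limma and Benjamini-Hochberg adjustment over all 5739 genes, 3847 genes (67.0%) were called at the adjusted p limit of 0.05, of which 1817 (31.7%) were higher and 2030 (35.4%) were lower on direct random arrays. The difference, direct random minus indirect, had a median of -0.02 over all genes with quartiles of -0.23 and 0.21, and the median size among the called genes was 0.34 on the log2 scale. Differences past 1 log2 unit, a change of more than 2-fold, were found for 89 called genes that were higher (1.55%) and for 74 that were lower (1.29%). The 6 direct random arrays did not overlap with the 6 indirect arrays for 2191 genes (38.2%). At the ends of the distribution the gains were larger than the losses, with 9 genes more than 2 log2 units higher and 2 more than 2 log2 units lower.

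**Figure D1:**
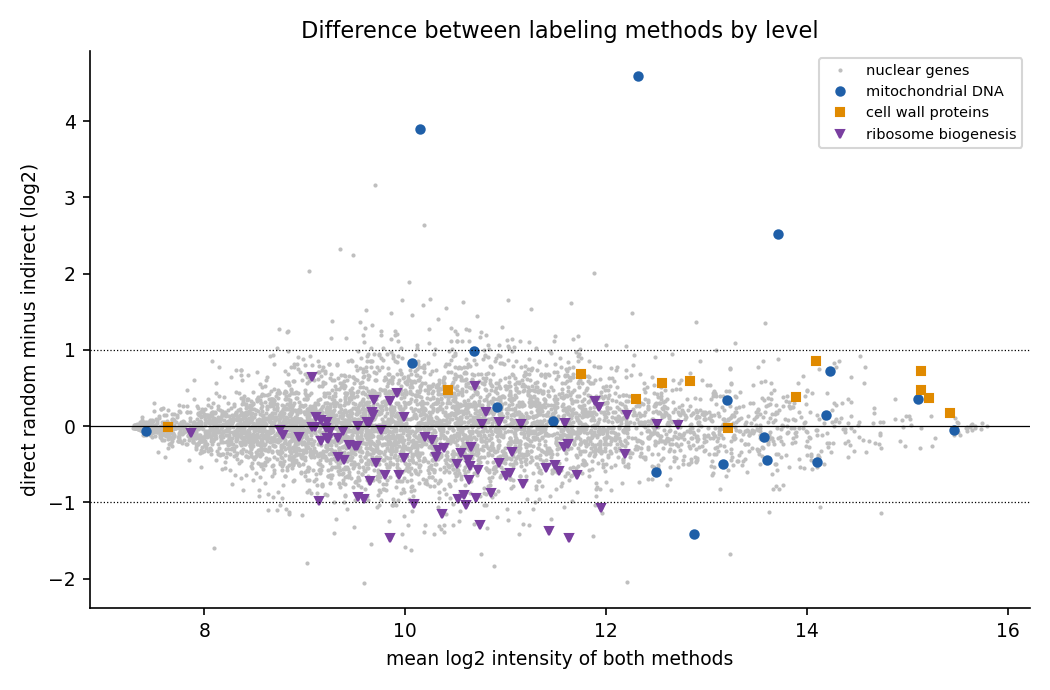
The log2 difference, direct random minus indirect, is plotted for each gene against its mean log2 intensity over both methods, with dotted lines at 1 log2 unit either way. Genes of the mitochondrial DNA include the 2 largest differences, 4.59 and 3.90, cell wall genes lie at or above 0 except for small negative values, and ribosome biogenesis genes mostly lie below 0.

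The genes of the mitochondrial DNA gave the largest differences, and they did not move as 1 class. Of 19 genes measured, 8 were higher (42.1%) and 5 were lower (26.3%) on direct random arrays, beside 31.7% and 35.4% of all genes. The other 6 were not called, and the median difference was 0.15. That median rested in part on the third indirect labeling of EPY338, which gave the lowest of the 6 indirect values for 16 of the 19 mitochondrial genes, and for 918 of the 5720 nuclear genes. Without it the median was 0.005, with 7 genes higher and 6 lower, and without the first indirect labeling of EPY338 it was 0.271.

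Yeast mitochondrial DNA encodes a few proteins of the respiratory chain and ATP synthase, 1 ribosomal protein, and a set of proteins read from within introns. Of the 8 structural genes, 4 were higher on direct random arrays and none was lower, and these 4 were the subunits of respiratory complexes. COX3, which encodes subunit III of cytochrome c oxidase, had log2 intensities of 14.32, 14.64 and 14.84 (lowest, median and highest of 6 arrays) on direct random arrays, against 9.58, 10.12 and 10.19 on indirect arrays. Every direct random array was thus far above every indirect array. The difference of 4.59 (SE 0.07) is 24.2-fold, with a limma adjusted p of 7.36e-14, and was 4.61 in EPY330 and 4.58 in EPY338.

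COX2, which encodes subunit II of the same enzyme, ranged from 14.88 to 15.08 with a median of 14.98 on direct random arrays, against 11.91 to 12.91 with a median of 12.46 on indirect arrays. Its 2 sets of arrays did not overlap, and the difference was 2.52 (SE 0.11, 5.72-fold, limma adjusted p of 4.81e-10). The gene Q0255, annotated next to COX2 and overlapping its end, ranged from 11.28 to 12.81 on direct random arrays, against 7.93 to 8.33 on indirect arrays, a difference of 3.90 (SE 0.16, limma adjusted p of 4.66e-10). COX1, the catalytic subunit I of the oxidase, differed by far less, with medians of 14.60 on direct random arrays and 13.98 on indirect arrays and a difference of 0.72. COB, which encodes cytochrome b, had medians of 15.27 on direct random arrays and 14.93 on indirect arrays, a difference of 0.36. The order of the gains among these subunits was therefore COX3, COX2, COX1 and COB. With either method COB was the nearest of them to the highest deposited value of 15.88, which may limit its difference.

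The 3 mitochondrial genes of the membrane part of ATP synthase were not called. ATP6 had medians of 14.26 with either method and a difference of 0.15. ATP8 scattered most, from 10.36 to 12.32 on direct random arrays and from 10.09 to 12.08 on indirect arrays, with a difference of 0.07 and an SE of 0.28. OLI1, which encodes the ring subunit, had medians of 15.45 on direct random arrays and 15.51 on indirect arrays, near the highest deposited value of 15.88. VAR1, the mitochondrial ribosomal protein gene, was near the bottom of the scale with either method, at medians of 7.38 on direct random arrays and 7.46 on indirect arrays, and its difference of -0.07 was not called, although it was called without the third indirect labeling of EPY338. At such a level little difference in its RNA could be detected.

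The intron-encoded genes are given by host gene. The reading frames within COX1 introns, which encode maturases and endonucleases that act on their own introns, were lower in 5 of 6 cases on direct random arrays, opposite to COX1 itself. AI5_BETA showed the largest of these losses, with 11.95, 12.18 and 12.33 (lowest, median and highest) on direct random arrays, against 13.20, 13.61 and 13.83 on indirect arrays. It was the only reading frame of the COX1 introns whose 2 sets of arrays did not overlap, and it was lower by 2.66-fold (limma adjusted p of 9.05e-09). AI1, AI3, AI4 and AI5_ALPHA had differences of -0.47, -0.44, -0.49 and -0.60 with overlapping arrays, and AI2 was not called at -0.14.

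The reading frames within COB introns had positive differences. BI2 had a median of 11.23 on direct random arrays and 10.44 on indirect arrays, and the medians of BI3 were 10.48 on direct random arrays and 9.68 on indirect arrays. Both were called, with differences of 0.99 and 0.83, but their arrays overlapped. BI3 lost its call in several alternatives, among them EPY338 arrays alone (0.44) and without the third indirect labeling of EPY338 (0.61). BI4 was not called at 0.25 (0.59 in EPY330 and -0.09 in EPY338). SCEI, the homing endonuclease gene in the intron of the large mitochondrial ribosomal RNA, was higher by 0.34. Reading frames within introns share their template with the unspliced RNA of the host gene, so these values are not independent of each other.

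**Figure D2:**
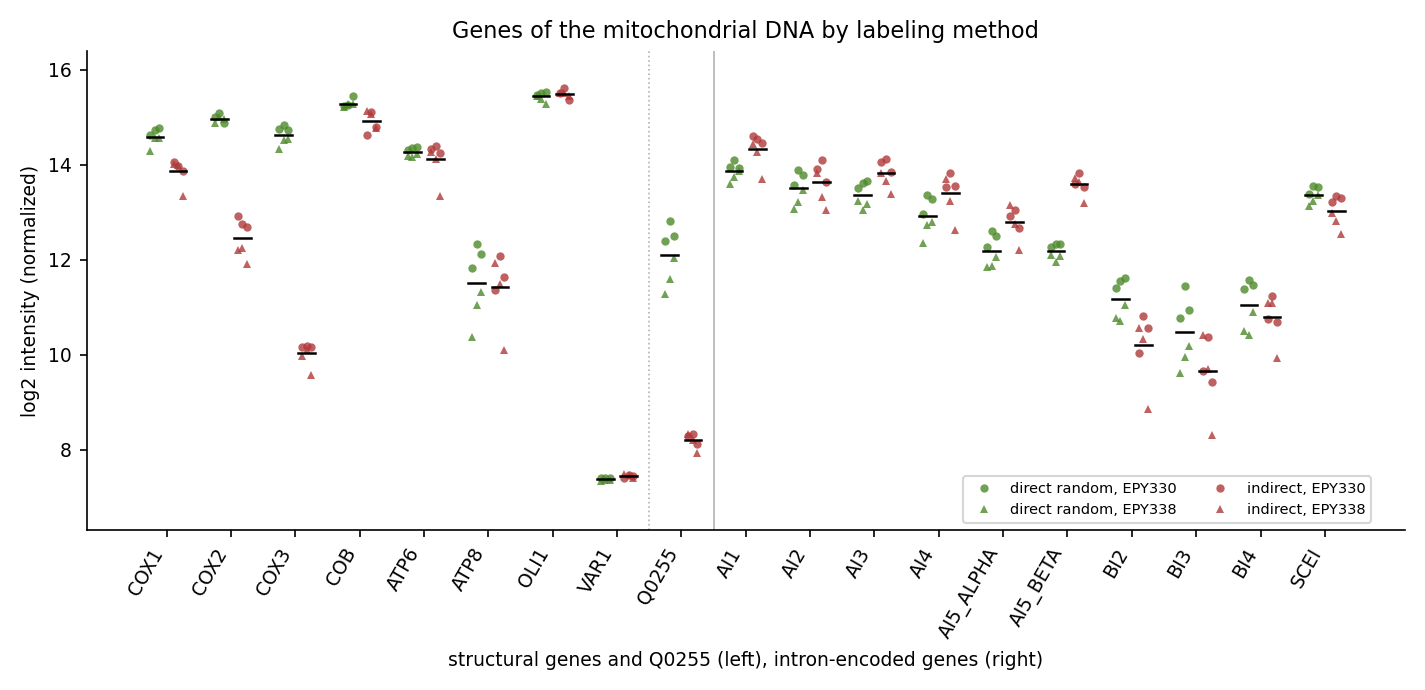
The log2 intensity of each mitochondrial gene is plotted for every array, the direct random arrays (green) left of the indirect arrays (red), with circles for EPY330, triangles for EPY338 and a bar at the mean of each method. The means of COX3, COX2 and Q0255 differ by more than 2 log2 units, that of AI5_BETA is lower on direct random arrays, and 1 EPY338 indirect array lies below its group for most genes.

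For these genes the ds-cDNA method, which also starts from an oligo(dT) primer, can be set beside the others on the same scale. According to the paper, its label is added by random priming on double-stranded cDNA. The product also contains the sense strand, which by the paper's account does not bind to the array. Its 6 arrays averaged 8.78 for COX3, 10.17 for COX2 and 7.34 for Q0255. The median of the 19 mitochondrial genes was 13.37 on direct random arrays, 13.03 on indirect arrays and 9.25 on ds-cDNA arrays. That of all nuclear genes was 9.99, 10.0 and 10.12 in the same order. Some nuclear lists were also lower on ds-cDNA arrays, such as large ribosomal subunit genes (11.61, against 13.76 on indirect arrays) and histones (10.82, against 12.59). Nuclear genes of 3600 bases or more were higher instead (10.66, against 10.19). The cause of these differences was not tested.

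The 5720 nuclear genes were centred close to 0, with a median difference of -0.02, 1809 higher and 2025 lower. The medians of the 16 nuclear chromosomes lay between -0.06 and 0.02. Among nuclear genes past 1 log2 unit, 86 were higher and 73 were lower on direct random arrays.

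The largest nuclear gain was that of PUF3, which encodes an RNA-binding protein of the Pumilio family that binds messenger RNAs for mitochondrial proteins. Its log2 intensities were 11.06, 11.27 and 11.51 (lowest, median and highest) on direct random arrays, against 8.04, 8.10 and 8.30 on indirect arrays. The arrays of the methods were separated by more than 2 log2 units, and the difference of 3.16 (SE 0.07) is 8.96-fold (limma adjusted p of 1.32e-12). CPS1, a vacuolar carboxypeptidase gene, ranged from 11.40 to 11.58 on direct random arrays, against 8.71 to 9.08 on indirect arrays, a difference of 2.64. ARE2, which encodes an enzyme that esterifies sterols, ranged from 10.26 to 10.84 on direct random arrays, against 8.15 to 8.59 on indirect arrays (2.24). EDC1, which encodes an activator of mRNA decapping, ranged from 9.69 to 10.34 on direct random arrays, against 7.95 to 8.17 on indirect arrays (2.03). None of these 4 genes had overlapping arrays, as the choice of the largest gains required, and all 4 averaged under 9 on indirect arrays.

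The other nuclear genes among the 10 largest gains were YOR072W-B (2.32), BSC1 (2.01) and TDA10 (1.89). BSC1 had a median of 12.92 on direct random arrays and 10.80 on indirect arrays. A group of 10 genes averaged over 10 on direct random arrays and under 9 on indirect arrays, namely PUF3, CPS1, ARE2, EDC1, Q0255, YOR072W-B, VNX1, HPF1, TGL5 and YOR376W-A, a choice made after the values were seen. The opposite pattern, under 9 on direct random arrays and over 10 on indirect arrays, was found for YGR272C, SLK19 and NUT2.

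The largest nuclear loss among genes with an annotation was that of VMA10, which encodes subunit G of the vacuolar proton pump. Its log2 intensities were 10.91, 11.16 and 11.48 (lowest, median and highest) on direct random arrays, against 12.99, 13.25 and 13.39 on indirect arrays. The sets did not overlap, and the difference of -2.04 (SE 0.05) makes it 4.13-fold lower on direct random arrays (limma adjusted p of 1.29e-11). YGR272C, which was not matched to the annotation used here, had a similar difference of -2.05, with medians of 8.61 on direct random arrays and 10.60 on indirect arrays. RPL29, a protein gene of the large ribosomal subunit, ranged from 12.30 to 12.52 on direct random arrays, against 13.96 to 14.19 on indirect arrays, and was 3.17-fold lower.

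CGR1, PXR1 and RRP36, also among the 10 largest losses, are in none of the function lists described below. CGR1, needed for processing of precursor ribosomal RNA, had medians of 9.92 on direct random arrays and 11.81 on indirect arrays (-1.83). PXR1, a nucleolar RNA maturation gene, had 9.90 on direct random arrays and 11.60 on indirect arrays (-1.67). RRP36, needed for the small subunit, had 9.25 on direct random arrays and 10.90 on indirect arrays (-1.63). The remaining losses were those of MOR1 (-1.80), YLR154C-H (-1.60), FYV6 (-1.58) and the kinetochore gene SLK19 (-1.55). All 10 were without overlap between the methods, as the choice of these genes required.

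**Figure D3:**
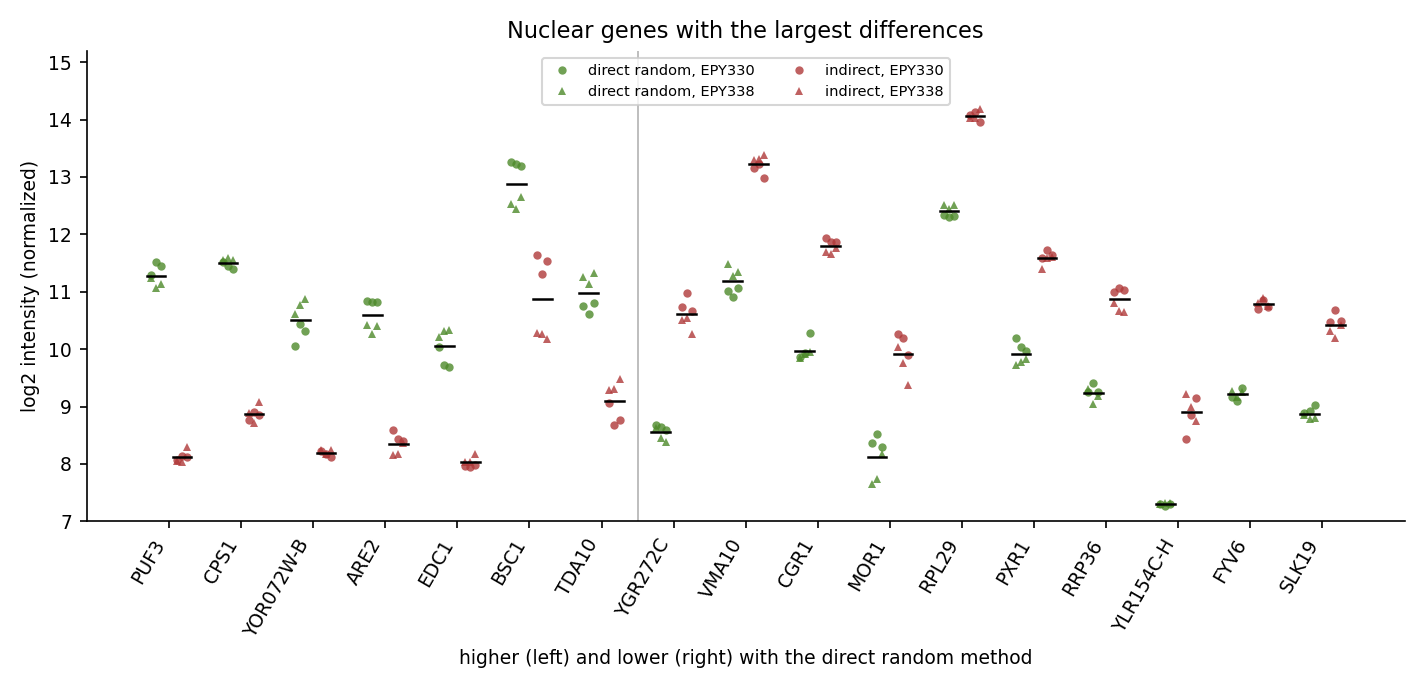
The log2 intensity of the nuclear genes among the 10 largest gains and the 10 largest losses is plotted for every array, the direct random arrays (green) left of the indirect arrays (red), with circles for EPY330, triangles for EPY338 and a bar at the mean. Gains run from PUF3 (3.16) to TDA10 (1.89) and losses from YGR272C (-2.05) to SLK19 (-1.55). In each case the 2 sets of 6 arrays are apart, as the choice of these genes required.

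Gene length separated the nuclear genes only weakly. Across the 5714 nuclear genes with an annotated length, Spearman's coefficient between length and difference was 0.11, a description across genes that share the same arrays. It was 0.04 among the dimmest genes, 0.12 among the middle ones and 0.18 among the brightest, after a split of the genes by brightness into 3 equal parts, and 0.10 in EPY330 and 0.12 in EPY338.

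Genes of 300 to under 1200 bases lost signal more often than they gained it on direct random arrays. Of 709 genes of 300 to under 600 bases, 198 were higher and 285 were lower, with a median of -0.06. Of 1821 genes of 600 to under 1200 bases, 509 were higher and 744 were lower, with a median of -0.05. The shares that were lower, 40.2% and 40.9%, stand beside 35.4% of all genes. For genes of 1200 to under 2400 bases the calls were 716 higher and 650 lower of 2052, for 2400 to under 3600 bases 220 higher and 177 lower of 593 with a median of 0.03, and for 3600 bases or more 95 higher and 84 lower of 271 with a median of 0.03. The shortest class, under 300 bases, had 70 higher and 84 lower of 268 with a median of -0.01, but 37.3% of its genes averaged under 8 with both methods, where little signal could differ. The spread within a class was several times wider than the distance between classes, with quartiles of -0.31 and 0.18 for 300 to under 600 bases and of -0.18 and 0.30 for 2400 to under 3600 bases.

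Among the brightest of these 3 parts, of which 38.1% were higher and 35.2% were lower over all lengths, the medians lay further apart. There, 146 of 452 genes under 600 bases were higher and 190 were lower, with a median of -0.06. Of 220 genes of 2400 bases or more, 98 were higher and 52 were lower, with a median of 0.10. The medians of these 2 length groups were also apart in the middle part, at -0.11 and 0.03. In the dimmest part they were -0.02 and -0.01. The nuclear genes that were higher past 1 log2 unit had a median length of 1731 bases, those that were lower past 1 log2 unit 928.5 bases, and all nuclear genes 1222.5 bases. Both directions nevertheless held short and long genes: 15 of the 85 higher genes with a length were under 600 bases, and 29 of the 72 lower genes were of 1200 bases or more.

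**Figure D4:**
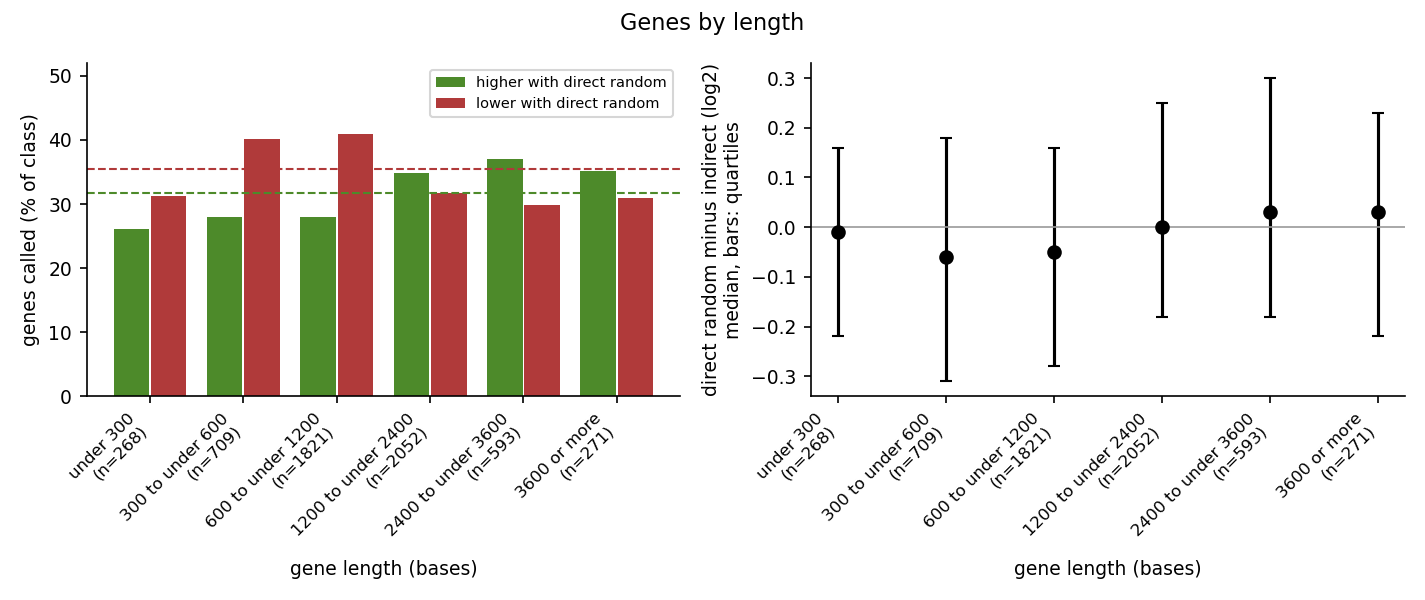
Left, the share of genes called higher (green) and lower (red) on direct random arrays in 6 classes of gene length, with dashed lines at 31.7% and 35.4%, the shares over all genes. Right, the median difference of each class with its quartiles. Lower calls exceed higher calls below 1200 bases and the reverse holds from 1200 bases on, while the quartiles of all classes overlap.

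The ends of the length range were not uniform. Of the 3 shortest genes, RPL41A, which encodes a very small protein of the large ribosomal subunit, ranged from 14.02 to 14.25 on direct random arrays, against 15.10 to 15.38 on indirect arrays (-1.14). YOR302W instead was higher, with medians of 12.71 on direct random arrays and 11.86 on indirect arrays (0.93). YAR035C-A was at the bottom of the scale with either method, with medians of 7.35 on direct random arrays and 7.33 on indirect arrays. Of the 3 longest, the dynein heavy chain gene DYN1 and TRA1, a subunit of histone acetyltransferase complexes, were higher by 0.50 and 0.49, and REA1, an AAA ATPase of ribosome assembly, was lower (-0.55). RPL41A and RPL41B encode the same protein, and only the first had values, so its signal may include both copies.

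The function lists were chosen with earlier results of these data known, so their counts and medians are descriptions and test nothing. Genes for the making of ribosomes were more often lower than higher. Of 87 ribosome biogenesis genes, 54 were lower (62.1%) and 11 were higher on direct random arrays, with a median of -0.26, beside 35.4% lower and -0.02 for all genes. Past 1 log2 unit, 8 were lower and none was higher. The loss was spread over the branches of the pathway, with 29 of 44 large subunit assembly genes lower (median -0.33), 21 of 35 genes of the small subunit processome (median -0.17) and 4 of 8 genes of the box C/D and H/ACA particles, which modify ribosomal RNA (median -0.17).

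RRP14, a nucleolar assembly factor gene, had log2 intensities of 10.70, 10.93 and 11.03 (lowest, median and highest) on direct random arrays, against 12.19, 12.36 and 12.51 on indirect arrays. Its arrays did not overlap and the difference was -1.47 (2.76-fold lower, limma adjusted p of 7.36e-11). ENP2 (-1.47), RRP15 (-1.38), KRR1 (-1.29), NOP12 (-1.15), NHP2 (-1.07), SPB1 (-1.04) and UTP9 (-1.02) were the others of this list past 1 log2 unit. CGR1, PXR1 and RRP36, described above, are not on the list and are not in its counts. At the other end, UTP22 of the processome ranged from 8.97 to 9.71 on direct random arrays, against 8.56 to 8.90 on indirect arrays, and was higher by 0.64.

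The ribosomal protein genes followed in part. Of 78 genes of the large subunit, 47 were lower (60.3%) and 14 were higher (17.9%, median -0.17), beside 35.4% lower and 31.7% higher for all genes. RPL29, RPL41A and RPL39 were the 3 past 1 log2 unit, all of them lower. Of 55 genes of the small subunit, 27 were lower (49.1%) and 17 were higher (30.9%, median -0.10). RPS12 ranged from 12.88 to 13.16 on direct random arrays, against 14.13 to 14.30 on indirect arrays (-1.13), whereas RPS0B ranged from 13.51 to 13.67 on direct random arrays, against 12.52 to 12.66 on indirect arrays (1.00). Single ribosomal protein genes thus departed from their group in either direction. RPL43A, the highest of the large subunit list, was at 0.57. Most yeast ribosomal proteins are encoded by pairs of near-identical genes, and probes may read both copies.

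Nuclear genes for mitochondrial ribosomes and for the respiratory chain were called in both directions, as were all genes, at 31.7% higher and 35.4% lower. Of 75 mitochondrial ribosomal protein genes 23 were higher (30.7%) and 30 were lower (40%, median -0.06), between MRP4 (1.25) and MRPL10 (-1.13). MRP4 overlaps another coding gene on the opposite strand. Of 44 nuclear genes of the respiratory chain and ATP synthase 13 were higher (29.5%) and 20 were lower (45.5%, median -0.09). ATP15, the epsilon subunit of ATP synthase, had medians of 14.74 on direct random arrays and 13.89 on indirect arrays, and ATP4, its stator subunit, had 13.24 on direct random arrays and 14.07 on indirect arrays.

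Histone genes, whose RNAs in yeast are polyadenylated, were lower in 7 of 11 cases (63.6%) and higher in none (median -0.35), beside 35.4% lower for all genes. Of the 8 core histone genes 4 were lower, with a median of -0.19 (-0.04 in EPY330 and -0.29 in EPY338). The 3 linker or variant histone genes were all lower (median -0.44). HTZ1, the H2A.Z variant, had 9.01, 9.18 and 9.32 (lowest, median and highest) on direct random arrays, against 9.93, 10.02 and 10.08 on indirect arrays. It was 1.77-fold lower without overlap (limma adjusted p of 1.65e-09). The H4 genes HHF1 and HHF2 were lower at -0.44 and -0.51, while HTB1, an H2B gene, was not called at 0.08. H3 and H4 are each encoded by a pair of near-identical genes.

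Genes for protein turnover and folding were also more often lower than higher. Of 33 proteasome genes 19 were lower and 5 were higher (median -0.16), beside 35.4% lower and 31.7% higher for all genes. In the regulatory particle 13 of 19 genes were lower (68.4%) and 1 was higher (median -0.19). In the core particle 6 of 14 genes were lower (42.9%) and 4 were higher (28.6%, median -0.04). The core particle, with a median of -0.08 in EPY330 and 0.01 in EPY338, was thus closer to all genes. PUP2 of the core was the lowest at -0.69. Of 22 chaperone genes 13 were lower (59.1%) and 2 were higher (9.1%, median -0.15), beside 35.4% and 31.7% of all genes. The near-identical paralogs for the Hsp90 chaperone went opposite ways. HSP82 had medians of 12.72 on direct random arrays and 13.39 on indirect arrays (-0.64), and HSC82 had 13.51 on direct random arrays and 13.10 on indirect arrays (0.38).

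RNA polymerase subunits (15 lower and 8 higher of 31, median -0.14) and translation factors (12 lower and 6 higher of 27, median -0.08) had smaller shifts. Their lower shares were 48.4% and 44.4%, beside 35.4% for all genes, and their higher shares 25.8% and 22.2%, beside 31.7%. Among the translation factors, NIP1, a subunit of initiation factor 3, was higher by 0.78 and YEF3, the fungal elongation factor 3, was lower (-0.46). The lists for central metabolism were balanced, with 9 higher and 7 lower of 21 glycolysis and fermentation genes (median 0.02), 4 higher and 4 lower of 11 genes of the TCA cycle, and 9 higher and 7 lower of 23 sterol synthesis genes (median 0.06). In glycolysis HXK2, a hexokinase, was the highest at 0.60 and TPI1, triose phosphate isomerase, the lowest at -0.53.

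Cell wall protein genes had the highest median among the 18 function lists. Of 13 genes, 11 were higher and none was lower on direct random arrays, with a median of 0.47, beside 31.7% higher for all genes. CCW14, a mannoprotein of the inner wall layer, had 14.40, 14.54 and 14.60 (lowest, median and highest) on direct random arrays, against 13.55, 13.69 and 13.73 on indirect arrays. The sets did not overlap, with a difference of 0.86 (1.82-fold, limma adjusted p of 7.54e-10). The mannoprotein genes CWP2 (0.72), SPI1 (0.68) and CCW12 (0.47) and PIR1 (0.57), whose product is linked to glucan, were higher as well. PIR3 (-0.03) was not called, and CWP1 (-0.01), also not called, was near the bottom of the scale with both methods, at medians of 7.65 on direct random arrays and 7.62 on indirect arrays.

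The related anaerobic mannoproteins of the TIR and DAN group were higher in 5 cases and lower in 1 of 8 (median 0.45). DAN2 and DAN3, older names of PAU23 and PAU24, are counted in this group and again among the seripauperin genes below. DAN4 ranged from 14.92 to 15.19 on direct random arrays, against 13.91 to 14.24 on indirect arrays (0.92). The seripauperin genes, named PAU, had differences close to 0, with 1 higher and 1 lower of 21, but these near-identical genes cannot be told apart with certainty by probes. Their medians, 15.57 on direct random arrays and 15.60 on indirect arrays, were near the highest deposited value of 15.88, where little difference could show. Of 15 measured genes of subtelomeric families 9 were higher (60%) and none was lower (median 0.19), beside 31.7% higher for all genes. The higher ones included all 5 flocculin genes, which encode adhesins, from FLO5 (0.12) to FLO11 (0.56). With EPY338 arrays alone, 2 of these 15 genes were called.

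Of 20 genes for kinases of the PI3K-related family and other giant proteins, 10 were higher and 4 were lower (median 0.15). These shares, 50% higher and 20% lower, stand beside 31.7% and 35.4% for all genes. Of the 5 kinases 1 was higher and 1 was lower (median 0.05). Of the 15 other giant proteins 9 were higher and 3 were lower (median 0.17). URA2, the multifunctional enzyme that starts pyrimidine synthesis, ranged from 12.28 to 12.35 on direct random arrays, against 11.48 to 11.64 on indirect arrays (0.77). HFA1, a mitochondrial acetyl-CoA carboxylase, had medians of 9.0 on direct random arrays and 9.90 on indirect arrays (-0.97). ABC transporter genes were balanced, with 6 higher and 4 lower of 18, from AUS1, a sterol importer, at 0.77 to PDR10 at -1.03.

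**Figure D5:**
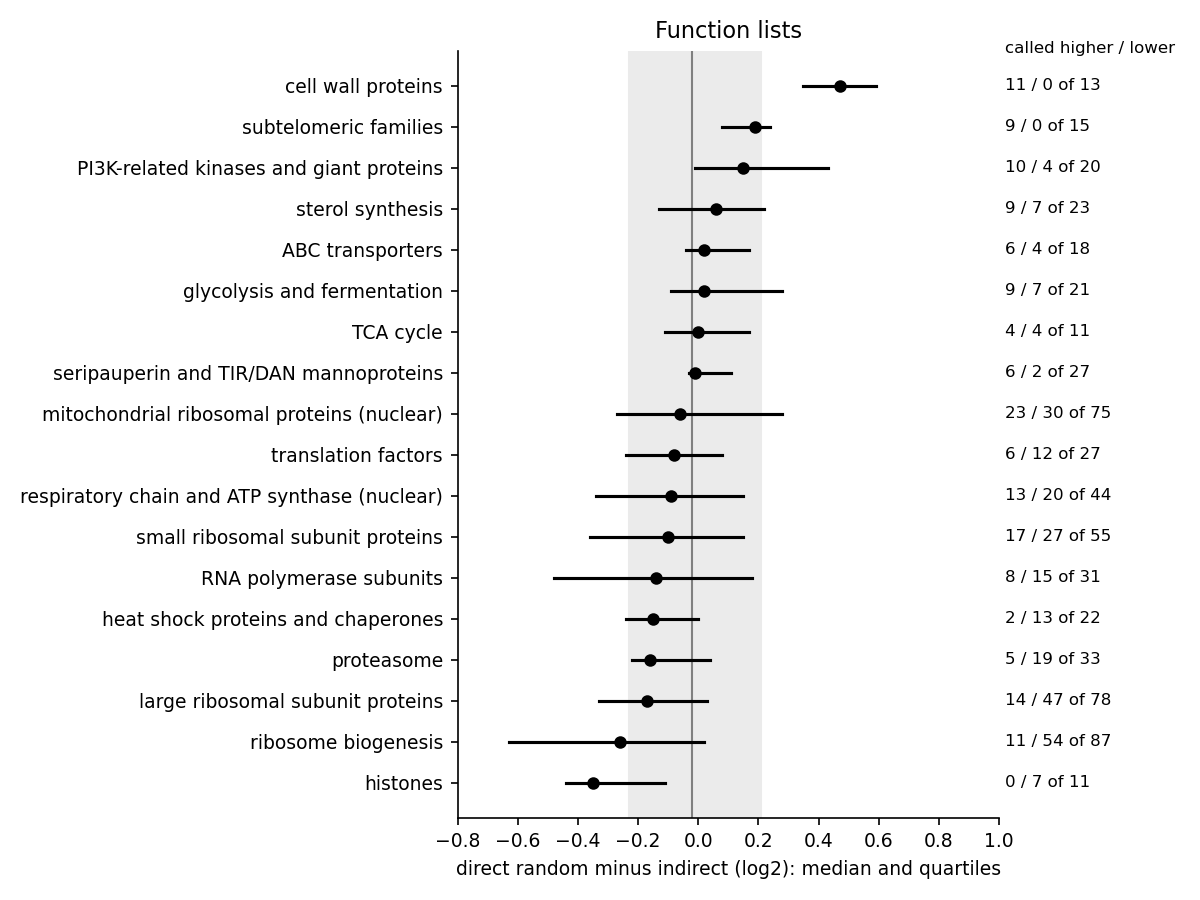
The median difference (point) and the quartiles (line) of 18 function lists are plotted on the log2 scale, with the number called higher and lower of the measured genes at the right. The grey band spans the quartiles of all genes, -0.23 to 0.21. The medians of cell wall proteins (0.47), ribosome biogenesis (-0.26) and histones (-0.35) lie outside the band and those of the other lists inside it.

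Genes that overlap an annotated noncoding RNA showed no common direction. On the same strand 4 of 14 were higher and 4 were lower (median 0.01), and on the opposite strand 4 of 14 were higher and 5 were lower (median -0.03). The higher share was 28.6% on either strand and the lower shares 28.6% and 35.7%, beside 31.7% higher and 35.4% lower for all genes. Of 9 genes that overlap a small nucleolar RNA on their own strand, wholly or in part, 2 were higher and 4 were lower, from RPS22B (0.31) to RPL7B (-0.41).

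Of these overlaps, 3 were past 1 log2 unit. YOR072W-B, of which 51.2% overlaps the tRNA gene SUF11 on the same strand, ranged from 10.05 to 10.88 on direct random arrays, against 8.12 to 8.25 on indirect arrays, a difference of 2.32 (limma adjusted p of 1.7e-10). GAL4, the activator of the galactose genes, lies wholly opposite an annotated antisense RNA and ranged from 9.80 to 9.95 on direct random arrays, against 8.55 to 8.87 on indirect arrays (1.16). YLR154C-H, opposite a 5S ribosomal RNA gene, ranged from 7.26 to 7.32 on direct random arrays, against 8.44 to 9.21 on indirect arrays (-1.60). On ds-cDNA arrays the averages of these genes were 7.62, 11.10 and 13.37. The ds-cDNA product holds both strands, and the paper's statement that its sense strand does not bind was not tested for such overlaps. These averages were therefore not assigned to a single strand.

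The ribosomal DNA holds 2 further genes of this kind. YLR154C-G, which lies within the gene of the large ribosomal RNA on the same strand, ranged from 15.64 to 15.88 on direct random arrays and from 15.71 to 15.87 on indirect arrays. These values are at the top of the deposited scale, and the difference of 0.00 was not called. TAR1, opposite a copy of the same ribosomal RNA gene, averaged 7.65 on direct random arrays and 7.34 on indirect arrays, and 15.83 on ds-cDNA arrays. With both strands in the ds-cDNA product, that last value need not be signal of TAR1 itself, which was not tested. The ribosomal DNA is repeated in the genome, so that these genes have near-identical copies.

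The direction of the differences was compared between the strains. Of the 3847 called genes, 3846 had the same sign in EPY330 and EPY338. These calls came from a fit over both strains, which favours genes of equal sign, so that count is no separate check. With 1 strain at a time, 3252 genes were called in EPY330, of which 77.8% were also called in the same direction in EPY338, and 2976 in EPY338, of which 85% were so called in EPY330, and 1 gene was called in opposite directions. A limma test of the interaction between method and strain called 0 genes after adjustment, with 429 genes at an unadjusted p under 0.05. Cell wall genes had medians of 0.43 in EPY330 and 0.50 in EPY338, ribosome biogenesis genes -0.30 and -0.23, and histones -0.41 and -0.38. The median over the 19 mitochondrial genes was 0.20 in EPY330 and -0.09 in EPY338.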

How the data were processed

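Total RNA of EPY330 and EPY338 was labeled by the study with 3 methods and hybridized to 18 NimbleGen arrays, scanned with a gain set for each array. The deposited log2 values were made by the authors from NimbleScan intensities with RMA and quantile normalization in ArrayStar. The table held 5861 rows, of which 122 had no value on any array. The slide of each array is not given in the sources used here.

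The 12 direct random and indirect arrays were fitted with limma 3.58.1 in R 4.3.3 (lmFit and eBayes, method plus strain), with Benjamini-Hochberg adjustment over 5739 genes and a limit of 0.05. No other filter was applied, and the number of arrays limits the precision. On simulated data with 50 genes changed at each size, the fit recovered 68% at 0.3, 98% at 0.5 and 100% at 1 and 2 log2 units. It made 10 false calls among the genes left unchanged. Far fewer genes were changed there than were called in the data, so these rates need not hold for the comparison itself. Classes were described by counts and medians beside those of all genes, with no set test.

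Gene names, chromosomes, lengths and neighbours came from the RefSeq annotation of assembly R64, to which 5733 genes matched. Since the build of the probe design is not given in the sources used here, no coordinates are printed. Length is that of the gene model in bases, introns included, used in place of the protein length first planned, with limits of 300, 600, 1200, 2400 and 3600 bases. Strand was read from the systematic name. A class of retrotransposon genes was planned and is not reported. Of 91 names in the mitochondrial ribosomal protein list, 14 matched no gene.

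Named genes were the 10 largest differences either way without overlap between methods, mitochondrial genes, the highest and lowest of each list, genes past 1 log2 unit that overlap a noncoding RNA, and the 3 shortest and longest. Other members were named as examples after their values were seen. The members and lists were chosen with earlier results of these data known. Alternatives were other designs, scalings and filters, the methods' t-test, single strains, a replicate block and arrays left out. Python 3.11.15 with pandas 2.3.3 and matplotlib 3.10.9 was used for classes and figures.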

Additional observations from a re-analysis of the deposited data

How the results depend on the processing

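The count of called genes, 3847, was 2976 to 3930 over the alternatives: EPY338 arrays alone gave 2976, the methods' t-test 3313, all 18 arrays in 1 fit 3704 and an intensity trend in the prior variance 3930. Single arrays left out in turn gave 3699 to 3876. The replicate numbers did not pair the arrays (correlations of same-numbered deviations from -0.248 to 0.088), and with the replicate number as a block 3746 genes were called. Of the class medians, that of nuclear DNA was -0.009 after quantile normalization of the 12 arrays, -0.010 without the dimmest 25% of the genes and -0.009 with EPY330 arrays alone. That of mitochondrial DNA was -0.092 with EPY338 arrays alone, and 0.432 for the structural genes with EPY330 arrays alone. The median of genes under 300 bases was -0.074 and that of 1200 to under 2400 bases 0.042 without the dimmest 25% of the genes. That of 300 to under 600 bases was -0.026 with EPY330 arrays alone. In 2 alternatives chosen after the data had been seen, leaving out replicate 3 of every group gave -0.063 for mitochondrial DNA and -0.009 for nuclear DNA, and leaving out genes under 8 with both methods gave 0.023 for 1200 to under 2400 bases. Over single arrays left out, the median of nuclear DNA ranged from -0.022 to -0.010 and that of mitochondrial DNA from 0.005 to 0.271. The cause of these shifts was not tested. No class list of the report with a median past 0.1 either way changed sign, apart from mitochondrial DNA. Of the named genes, 18 results lost and 14 gained a call under an alternative, with BI3 losing its call most often, and no called difference changed its sign. Signal near the bottom of the scale limits 465 genes that averaged under 8 with both methods.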

Other observations

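Among the nuclear genes with large gains were some for surface proteins taken to be rich in serine and threonine, a composition not measured here. A list of 18 such genes was put together after the values had been seen, so its counts describe the choice and test nothing. Of these, 17 were higher and none was lower with the direct random method (median 0.67), 6 of them past 1 log2 unit. Over all genes 31.7% were higher and 35.4% were lower, and 1.55% were higher past 1 log2 unit. AGA1, the anchor subunit of a-agglutinin used in mating, ranged from 10.65 to 11.47 on direct random arrays, against 8.88 to 9.81 on indirect arrays (1.67). MSB2, a mucin-like osmosensor, ranged from 11.72 to 11.99 on direct random arrays, against 10.03 to 10.40 on indirect arrays (1.66). MTL1, a wall integrity sensor, ranged from 11.29 to 11.48 on direct random arrays, against 9.61 to 10.03 on indirect arrays (1.63). None of these 3 had overlapping arrays. WSC3, another sensor, was not called at 0.09, and the list shares its 5 flocculins with the subtelomeric families.

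A list of 26 regulators taken to be rich in glutamine and asparagine was also chosen after the values had been seen. Their composition was not measured either. It held 18 genes that were higher (69.2%) and 1 that was lower (3.8%, median 0.51), beside 31.7% and 35.4% of all genes. Past 1 log2 unit 7 were higher, beside 1.55% of all genes. Beside PUF3 these were the transcriptional regulators IXR1 (1.53), SFL1 (1.46), MSN2 (1.30) and PHD1 (1.18) and the RNA-binding proteins WHI3 (1.48) and WHI4 (1.21). IXR1 ranged from 11.96 to 12.06 on direct random arrays, against 10.33 to 10.64 on indirect arrays. Other members did not follow, with the Pumilio relative PUF4 at 0.03 and the RNA-binding protein PUB1 at 0.02, neither of them called.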
